A study of Mus musculus with 6 samples.

Results

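Ephrins and their Eph receptors are membrane proteins that carry signals between touching cells. The genes described here are 10 members of this family, the ephrin genes Efna1, Efna2, Efna5 and Efnb2 and the receptor genes Epha3, Epha4, Epha7, Ephb2, Ephb3 and Ephb4, chosen by name out of 21772 protein-coding genes. A peak was assigned to a member when it lay within 1 kb of either annotated end of the gene, inside the gene, or outside every gene with that member as the nearest protein-coding gene within 100 kb. In CHD7 libraries 1 and 2, 56 of 31873 and 48 of 26927 peaks were assigned in this way. In the H3K27ac libraries these were 40 of 24283 and 32 of 22686 peaks, and in the input libraries 0 of 451 and 0 of 512. Joined over the libraries of an antibody, and kept where both had a peak, they gave 34 of 19947 CHD7 regions and 27 of 17756 H3K27ac regions.

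All 6 libraries came from GFP-positive cells sorted from pharyngeal arches 3 to 6 of mouse embryos at E10.5, where males with the Wnt1-Cre2 transgene had been crossed to females with the mTmG reporter. The 3 groups, with 2 libraries each, differed only in the chromatin sequenced, that is chromatin precipitated with an antibody to CHD7, a chromatin remodelling ATPase, chromatin precipitated with an antibody to H3K27ac, an acetylation of histone H3 found at active promoters and enhancers, and input. Wnt1-Cre drivers mark the neural crest and also the dorsal neural tube, there was no mutant or treated group, and the labels do not say how many embryos were pooled or whether the libraries of a group came from separate sorts, so the spread between them may be technical. The values are fold enrichments at the peak summit as the authors' peak caller gave them, and no read counts come with them, so sequencing depth cannot be given. In sorted bulk chromatin, strong signal in few cells and weak signal in many cells cannot be told apart.

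Eph receptors are receptor tyrosine kinases. Ephrins of class A are held in the membrane by a glycolipid anchor and those of class B cross it, and both the receptor and the ephrin can signal into the cell that carries it. Contact between them often makes cells repel each other, which is known to keep streams of migrating neural crest apart and to set borders between tissues, and Efnb2 and Ephb4 are known as markers of arteries and of veins.

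The promoters below are shown because the members differed in where CHD7 and H3K27ac lay around the start. They are the 250 bases before the RefSeq start (build GRCm38.p6), written 5′ to 3′ on the strand of the gene. Capitals mark the GC box GGGCGG, on either strand, and the AP-2 motif GCCNNNGGC, which reads the same on both strands. Ephb4 (chr5:137349859-137350108, plus strand), Epha7 (chr4:28812881-28813130, plus strand) and Ephb2 (chr4:136836013-136836262, minus strand) had the highest CHD7 fold among members with both CHD7 and H3K27ac within 1 kb of the start. Efnb2 (chr8:8661243-8661492, minus strand) was added after its values were seen, because its CHD7 and H3K27ac regions lay on opposite sides of the start. Epha3 (chr16:63864176-63864425, minus strand) had neither at its start in both libraries.
Ephb4: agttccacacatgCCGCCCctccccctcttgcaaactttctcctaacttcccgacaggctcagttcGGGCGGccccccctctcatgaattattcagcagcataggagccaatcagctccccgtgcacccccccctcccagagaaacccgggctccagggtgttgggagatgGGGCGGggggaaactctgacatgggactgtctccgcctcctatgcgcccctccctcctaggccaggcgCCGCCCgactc
Epha7: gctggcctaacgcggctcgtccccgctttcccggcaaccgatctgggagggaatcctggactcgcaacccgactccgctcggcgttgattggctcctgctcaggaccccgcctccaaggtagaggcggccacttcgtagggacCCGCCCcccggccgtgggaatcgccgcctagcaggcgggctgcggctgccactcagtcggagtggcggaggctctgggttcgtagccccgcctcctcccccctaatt
Ephb2: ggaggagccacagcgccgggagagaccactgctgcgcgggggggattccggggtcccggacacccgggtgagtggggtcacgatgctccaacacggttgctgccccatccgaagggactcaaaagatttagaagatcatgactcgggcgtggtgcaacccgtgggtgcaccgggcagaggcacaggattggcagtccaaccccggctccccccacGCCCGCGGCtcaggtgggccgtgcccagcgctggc
Efnb2: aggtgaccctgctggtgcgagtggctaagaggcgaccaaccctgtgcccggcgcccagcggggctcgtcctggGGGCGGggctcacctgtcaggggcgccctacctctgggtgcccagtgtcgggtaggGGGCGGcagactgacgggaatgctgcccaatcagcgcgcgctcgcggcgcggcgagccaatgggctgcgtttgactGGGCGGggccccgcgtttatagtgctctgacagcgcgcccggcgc
Epha3: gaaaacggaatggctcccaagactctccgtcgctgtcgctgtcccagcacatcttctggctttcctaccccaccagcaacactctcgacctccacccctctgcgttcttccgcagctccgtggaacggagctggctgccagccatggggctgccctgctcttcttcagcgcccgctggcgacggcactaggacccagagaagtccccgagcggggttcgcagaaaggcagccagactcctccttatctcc
All 10 members had an entry in the promoter table. CHD7 regions covered 76 of these 250 bases of Ephb4 and 79 of Efnb2, and none of Epha7, Ephb2 or Epha3. H3K27ac regions covered all 250 bases of Ephb2 and 47 of Ephb4. The 250 bases of Ephb2 lie inside its annotated extent, which reaches 136836326, because the RefSeq start used is 136836012. Ephb4 held 4 GC boxes, Efnb2 held 3, Epha7 held 1 and Epha3 and Ephb2 held none, while the AP-2 motif was matched in Ephb2 alone among the 10 members. Of the members not shown, Efna5 held 4 GC boxes, Efna2 and Ephb3 held 2 each and Efna1 and Epha4 held 1 each. Of 17491 protein-coding promoters of the same length, 42.7% held a GC box and 15.9% the AP-2 motif. The promoter of Epha3 had 16 CG dinucleotides, against 12 in Ephb4, 20 in Ephb2, 25 in Epha7, 27 in Efnb2 and a median of 10 over all promoters.

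The first comparison asked which members carried CHD7 or H3K27ac at an end. A CHD7 region lay within 1 kb of an end of 7 of 10 members, Efna1, Efna2, Efnb2, Epha4, Epha7, Ephb2 and Ephb4, and 44.2% of all protein-coding genes had such a region. An H3K27ac region lay at an end of 9 of 10 members, all but Epha3, against 47.6% of all genes. At 5 members, Efna1, Efna2, Epha7, Ephb2 and Ephb4, a CHD7 region at an end overlapped an H3K27ac region, against 37.9% of all genes. These counts are descriptions of 10 genes and were not tested. With peaks of a −log10 q of at least 5, CHD7 lay at an end of 4 members (29.5% of all genes) and H3K27ac at an end of 8 (41.1% of all genes). With at least 10, no member kept CHD7 at an end (10.6% of all genes did), and 4 members, Efna2, Ephb2, Ephb3 and Ephb4, kept H3K27ac (28.3% of all genes). CHD7 library 2 alone had a peak at an end of 9 members and library 1 alone at 7, where 49.1% and 51.1% of all genes had one.

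The regions at these genes were among the weaker ones of their lists. At gene ends, the mean fold of the 11 CHD7 regions of the members had a median of 2.77, with a range of 2.35 to 3.98, and 10194 such regions over all genes had a median of 3.58. Of the 11, 1 lay above that median, the region beyond the far end of Efna2. For H3K27ac, 15 regions at ends of the members had a median of 3.1, against 4.46 for 11209 regions over all genes, and 3 of 15 lay above it. CHD7 in the gene bodies (13 regions, median fold 2.89, against 3.26 over all gene bodies) was also low. The 10 intergenic CHD7 regions had a median of 3.38, close to the 3.41 of all intergenic regions, and held the 3 highest folds of the members. No region of either antibody overlapped an input peak. The input lists held only 451 and 512 peaks over the series, and no share over all regions is given beside this. The labels do not say whether input served as control in the peak calls.

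**Figure D1:**
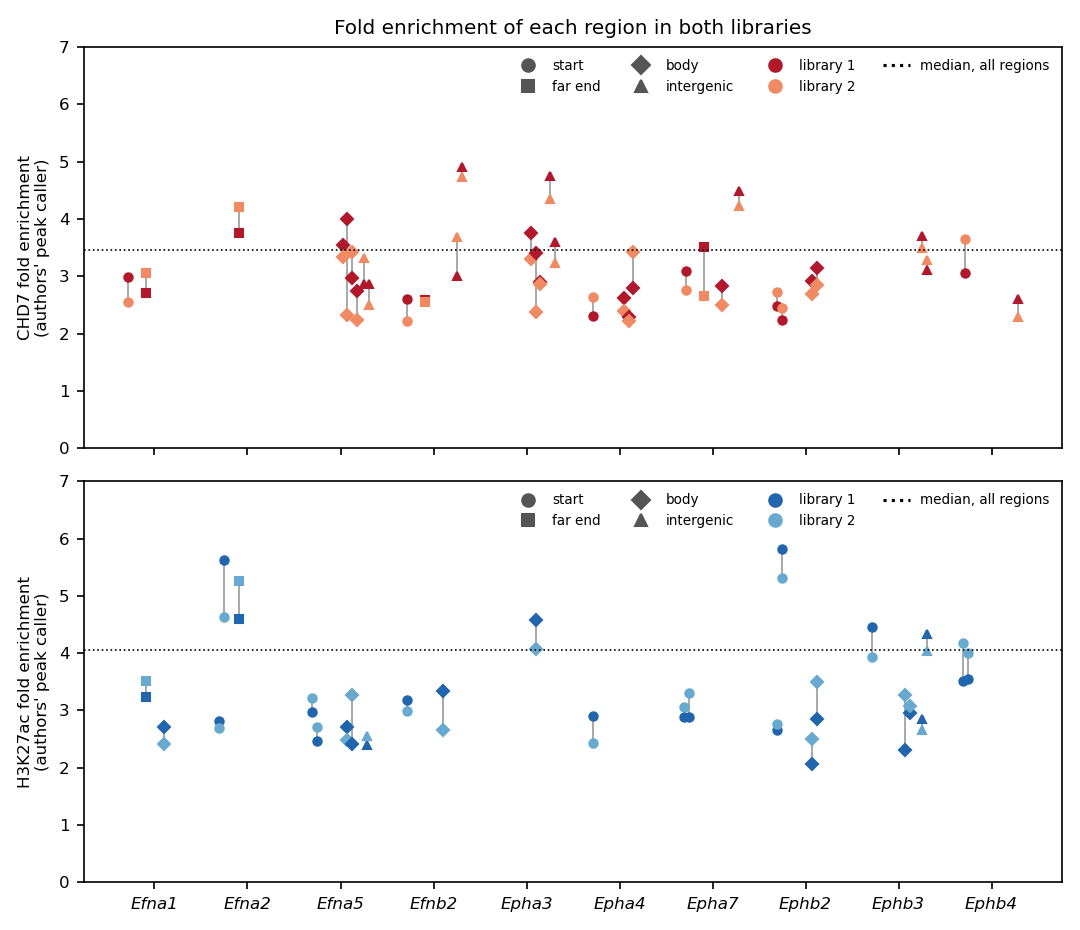
Fold enrichment (authors' peak caller, y axis) of each CHD7 region (upper panel) and H3K27ac region (lower panel) found in both libraries at the 10 members, with lines joining libraries 1 and 2 of the same region, marker shapes for the position relative to the gene, and the dotted line at the median mean fold of all regions (3.46 for CHD7 and 4.06 for H3K27ac). Most points lie below the dotted line, and the highest CHD7 values are the intergenic regions of Efnb2, Epha3 and Epha7.

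Among the ephrins of class A, Efna1 (gene ID 13636, chromosome 3, 89271730 to 89280951, minus strand) had a CHD7 region 787 bp upstream of its start, spanning 89281738 to 89282158. Its fold was 2.98 in library 1 and 2.56 in library 2, and all later pairs of folds are in that order. No H3K27ac region lay within 1 kb of the start of Efna1. A second CHD7 region lay 807 bp past its far end (89270326 to 89270923, folds 2.70 and 3.05) and overlapped an H3K27ac region (89269953 to 89271139, folds 3.23 and 3.52). That site also lay within 1 kb of an end of Slc50a1, a neighbouring gene, so it cannot be given to Efna1 alone. The H3K27ac region inside Efna1, 1.37 kb from the start (89278983 to 89279579), had folds of 2.72 and 2.42.

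Efna2 (13637, chromosome 10, 80179482 to 80190010, plus strand) had the strongest CHD7 region at an end of any member, but at its far end. It began 74 bp past that end (80190084 to 80190952), with folds of 3.75 and 4.20, a mean of 3.98 ± 0.32 (SD, n = 2). H3K27ac overlapped it (80189870 to 80191045, folds 4.59 and 5.26). At the start of Efna2, H3K27ac lay on either side, at 80178929 to 80179422 (folds 2.82 and 2.70) and at 80179692 to 80180203 (folds 5.62 and 4.64). CHD7 was called there in library 2 alone, with a fold of 2.43 at 80179014 to 80179339.

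Efna5 (13640, chromosome 17, 62602957 to 62881317, minus strand), the longest ephrin gene here at 278 kb, had no CHD7 within 1 kb of an end in either library. Its nearest CHD7 region lay 1054 bp upstream of the start (62882371 to 62882995, folds 2.86 and 3.32), just outside the limit that the region of Efna1 at 807 bp was just inside. This region and the next, 2.13 kb upstream (62883448 to 62884254, folds 2.87 and 2.50), overlapped H3K27ac. An H3K27ac region of 1019 bp covered the start of Efna5 itself (62880495 to 62881513), with folds of 2.98 and 3.22. Inside the gene, 3 of 4 CHD7 regions lacked H3K27ac, the strongest of them at 62675660 to 62676192, 205 kb from the start (folds 3.54 and 3.34). The CHD7 region at 62737345 to 62737835 had the widest spread between libraries of any at the members, with folds of 4.01 and 2.32.

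Efnb2 (13642, chromosome 8, 8617235 to 8661242, minus strand), the class B ephrin among the members, had CHD7 near both ends and H3K27ac overlapped none of its 4 CHD7 regions. The region 172 bp upstream of its start (8661414 to 8661900) had folds of 2.61 and 2.22. The H3K27ac region at the start lay on the other side, from 166 bp inside the gene (8659210 to 8661076), 1867 bp wide with folds of 3.18 and 3.00, so a gap of 338 bp separated the 2 marks. At the far end, CHD7 began 190 bp past the gene (8615578 to 8617045, folds 2.58 and 2.55). The strongest CHD7 region of all members lay 41.7 kb past that end (8574532 to 8575523), with folds of 4.91 and 4.73, a mean of 4.82 ± 0.13 (SD, n = 2). Its fold exceeded that of 90.6% of the intergenic CHD7 regions, and the nearest H3K27ac region was 44.3 kb away. H3K27ac inside Efnb2 lay 2.61 kb from the far end (8619849 to 8620293, folds 3.33 and 2.65).

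Among the class A receptors, Epha3 (13837, chromosome 16, 63543532 to 63864175, minus strand) was the member without a region of either antibody at an end. CHD7 library 2 alone had a peak over its start (63864027 to 63864488, fold 2.42). Its 5 CHD7 regions all lacked H3K27ac found in both libraries. The strongest lay 41.7 kb past the far end (63500837 to 63501828), with folds of 4.75 and 4.34, and H3K27ac library 1, but not library 2, had a peak inside it (fold 2.75). Within the gene the strongest CHD7 region lay 205 kb from the start (63658051 to 63658900, folds 3.75 and 3.31). The only H3K27ac region of Epha3 lay inside the gene, 6.26 kb from the start (63857143 to 63857912, folds 4.57 and 4.06), where CHD7 was called in library 1 alone, with a fold of 3.02.

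Epha4 (13838, chromosome 1, 77367182 to 77515107, minus strand) was arranged like Efnb2 at its start. CHD7 lay upstream (77515436 to 77516352, folds 2.3 and 2.64), H3K27ac lay inside the gene (77514508 to 77514895, folds 2.90 and 2.44), and 541 bp separated them. This was the only H3K27ac region of Epha4. The 3 CHD7 regions in its body all lacked H3K27ac found in both libraries. The strongest, 11.5 kb from the start (77502400 to 77503618), had folds of 2.79 and 3.42, and H3K27ac library 1 alone had a peak over its edge (77501955 to 77502434, fold 2.94).

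Epha7 (13841, chromosome 4, 28813066 to 28967503, plus strand) had CHD7 upstream of its start (28812208 to 28812821, folds 3.09 and 2.76) over an H3K27ac region (28812342 to 28812784, folds 2.88 and 3.06). A second H3K27ac region followed inside the gene (28813256 to 28814414, folds 2.88 and 3.31), so the promoter bases shown above lay in the gap between the 2. At the far end of Epha7, 133 bp past the gene, CHD7 without H3K27ac had folds of 3.51 and 2.65 (28967636 to 28968254). The strongest CHD7 region of this gene lay 28.2 kb upstream (28784433 to 28784886), again without H3K27ac, with folds of 4.50 and 4.22.

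Among the class B receptors, Ephb2 (13844, chromosome 4, 136647536 to 136836326, minus strand) had the strongest H3K27ac of all members. That region covered its start (136835958 to 136836957), with folds of 5.81 and 5.30 and a mean of 5.56 ± 0.36 (SD, n = 2), above 77.8% of the H3K27ac regions at gene ends. CHD7 at Ephb2 was weak and lay on either side of the start, with folds of 2.24 and 2.45 upstream (136836419 to 136836889) and 2.47 and 2.73 inside the gene (136834973 to 136835447). Both overlapped H3K27ac. In the body, CHD7 and H3K27ac overlapped 79.6 kb from the start (CHD7 at 136755705 to 136756431, folds 2.92 and 2.69, and H3K27ac at 136755750 to 136756449, folds 2.85 and 3.49). The strongest CHD7 region in the body, at 136783140 to 136783842 (folds 3.14 and 2.84), overlapped an H3K27ac peak in library 2 alone (136783322 to 136783931, fold 2.83).

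Ephb3 (13845, chromosome 16, 21204620 to 21223309, plus strand) had H3K27ac just inside its start (21204814 to 21205599, folds 4.45 and 3.94). CHD7 was called over it in library 2 alone, with a fold of 3.75, the highest of the member peaks found in 1 CHD7 library only. Past the far end of Ephb3, CHD7 and H3K27ac overlapped at 2 sites, unlike the distant CHD7 sites of Efnb2, Epha3 and Epha7. The nearer, 23.0 kb away, had CHD7 folds of 3.71 and 3.49 (21246262 to 21246779) and H3K27ac folds of 2.85 and 2.66. The farther, 87.1 kb away, had CHD7 folds of 3.11 and 3.28 (21310416 to 21311493) and H3K27ac folds of 4.33 and 4.04 (21310284 to 21311731).

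Ephb4 (13846, chromosome 5, 137350109 to 137374522, plus strand) had the strongest CHD7 at a start of any member, 175 bp upstream (137349016 to 137349934), with folds of 3.05 and 3.65. H3K27ac overlapped it (137348649 to 137349905, folds 3.51 and 4.17), and another H3K27ac region lay inside the gene from 32 bp past the start (137350141 to 137351135, folds 3.55 and 4.0). A CHD7 region 1505 bp past the far end of Ephb4 had folds of 2.60 and 2.3 and no H3K27ac (137376027 to 137376608).

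**Figure D2:**
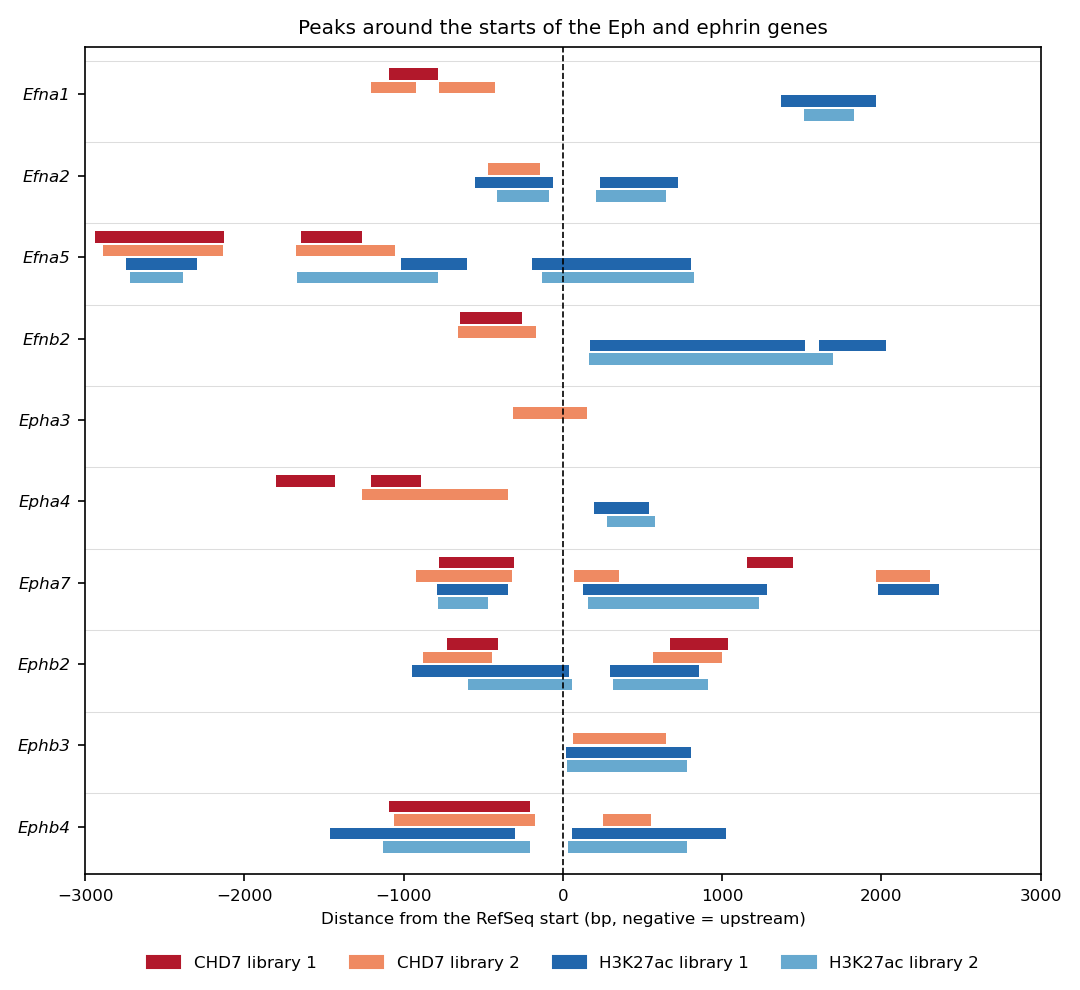
Peaks of each CHD7 and H3K27ac library around the RefSeq start of the 10 members; the x axis is the distance from the start in bp along the gene's own strand (upstream is negative, the dashed line is the start) and each bar is the extent of a peak, including peaks found in 1 library only. At Efnb2 and Epha4 the CHD7 bars lie upstream and the H3K27ac bars downstream without meeting, while at Epha7, Ephb2 and Ephb4 they share bases.

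The next comparison asked where CHD7 and H3K27ac lay relative to each other around the start. For the 6 members with CHD7 within 1 kb of the start, the summit of the strongest CHD7 region was upstream in both libraries at 5, Efna1, Efnb2, Epha4, Epha7 and Ephb4. In bp from the start, negative when upstream, the summits of libraries 1 and 2 were at −937 and −1064 for Efna1, −483 and −382 for Efnb2, −1034 and −865 for Epha4, −524 and −757 for Epha7 and −373 and −375 for Ephb4. At Ephb2 the stronger region was the one inside the gene, with summits 824 and 723 bp downstream. Of all 17491 genes with a RefSeq start, 7724 (44.2%) had CHD7 within 1 kb of it, and the CHD7 summit was upstream in both libraries at 32.5% of these 7724. Among the 2208 of these genes whose CHD7 fold was no higher than that of Ephb4, it was 33.1%. The median of the mean CHD7 summit position was 217 bp over all of these genes and −536.5 bp over the 6 members. No CHD7 region found in both libraries covered the start of a member, while 41.6% of all genes with CHD7 at the start, and 31.1% of those up to the fold of Ephb4, had a region over it.

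H3K27ac lay within 1 kb of the start of 8 members, where 48.4% of all genes with a RefSeq start had it, and its strongest summit was downstream in both libraries at 6 of the 8, Efna2, Efna5, Efnb2, Epha4, Epha7 and Ephb3, against 67.7% of all genes with H3K27ac at the start. At Ephb4 it was upstream, at −862 and −788 bp, as at Ephb2, at −153 and −146 bp. The RefSeq start used for Ephb2 is 136836012, inside the annotated extent of the gene, which reaches 136836326. The H3K27ac summits of Ephb2 thus lay inside that extent, and upstream only of the start used. An H3K27ac region covered the start itself at 2 of the 8, Efna5 and Ephb2, against 53.4% of all genes with H3K27ac there. At Efnb2, Epha4 and Epha7 the strongest CHD7 summit was thus upstream and the strongest H3K27ac summit downstream, an arrangement that 11.0% of the 6963 genes with both marks at the start had. Both marks lay at the start of 5 of the 10 members and of 6963 of the 17491 genes with a RefSeq start. The CHD7 region overlapped H3K27ac at 3 of the 5 members with both at the start, Epha7, Ephb2 and Ephb4. Over all genes with both, 96.9% had such an overlap, and 93.8% of those with a CHD7 fold up to that of Ephb4. The members were not compared with other genes by a test, and CHD7 library 2 also had peaks downstream of the start at Epha7 (fold 2.31) and Ephb4 (fold 2.53) that library 1 lacked.

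Over whole loci, most CHD7 regions of these genes lacked H3K27ac. H3K27ac overlapped 12 of the 34 CHD7 regions (35.3%), against 60.4% of all CHD7 regions. The members also had fewer of their CHD7 regions at gene ends, 11 of 34, against 10194 of 19947 in the series. Within classes of position, 6 of 11 CHD7 regions at ends overlapped H3K27ac (54.5%, against 80.4% of all at ends), as did 2 of 13 in gene bodies (15.4%, against 44.3%) and 4 of 10 between genes (40.0%, against 34.9%). The 2 in gene bodies were those of Efna5, 27.5 kb from the start (62852768 to 62853817, folds 2.74 and 2.24), and of Ephb2 given above. None of the CHD7 regions of Efnb2, Epha3 or Epha4 overlapped an H3K27ac region found in both libraries, and both of Ephb3 did. Of the 22 CHD7 regions without H3K27ac, 2 had an H3K27ac region within 1 kb, those at the starts of Efnb2 and Epha4 (9.09%, against 12.2% of the 7896 such CHD7 regions in the series), and 18 had none within 10 kb (81.8%, against 73.5%). A peak of 1 H3K27ac library overlapped 4 of the 22, at Epha3 (2 regions), Epha4 and Ephb2 (18.2%, against 25.2%). The overlap shares were not matched for fold, and only 7 of the 34 CHD7 regions lay above the median fold of their class. Whether the weak folds bear on the lower overlap was not tested.

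In the other direction, CHD7 overlapped 12 of the 27 H3K27ac regions (44.4%), against 66.8% of all H3K27ac regions. At gene ends these were 7 of 15 (46.7%, against 72.0%), in gene bodies 2 of 9 (22.2%, against 57.4%) and between genes 3 of 3 (against 58.1%). Fold was not matched here either, and 5 of the 27 H3K27ac regions lay above the median fold of their class. H3K27ac regions without CHD7 found in both libraries included those at the starts of Efna2 and Ephb3 with mean folds of 5.13 and 4.20, among the 5 highest of the members. A peak of 1 CHD7 library overlapped 7 of the 15 H3K27ac regions without CHD7 (46.7%, against 54.6% of the 5902 such regions in the series). These lay at Efna2, Efna5, Epha3, Epha7, Ephb3 (2 regions, with the one at its start) and Ephb4. With peaks of a −log10 q of at least 10, only the intergenic CHD7 regions of Efnb2 and Epha3, each 41.7 kb past the far end, were left in both libraries, with 8 H3K27ac regions, and none overlapped.

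**Figure D3:**
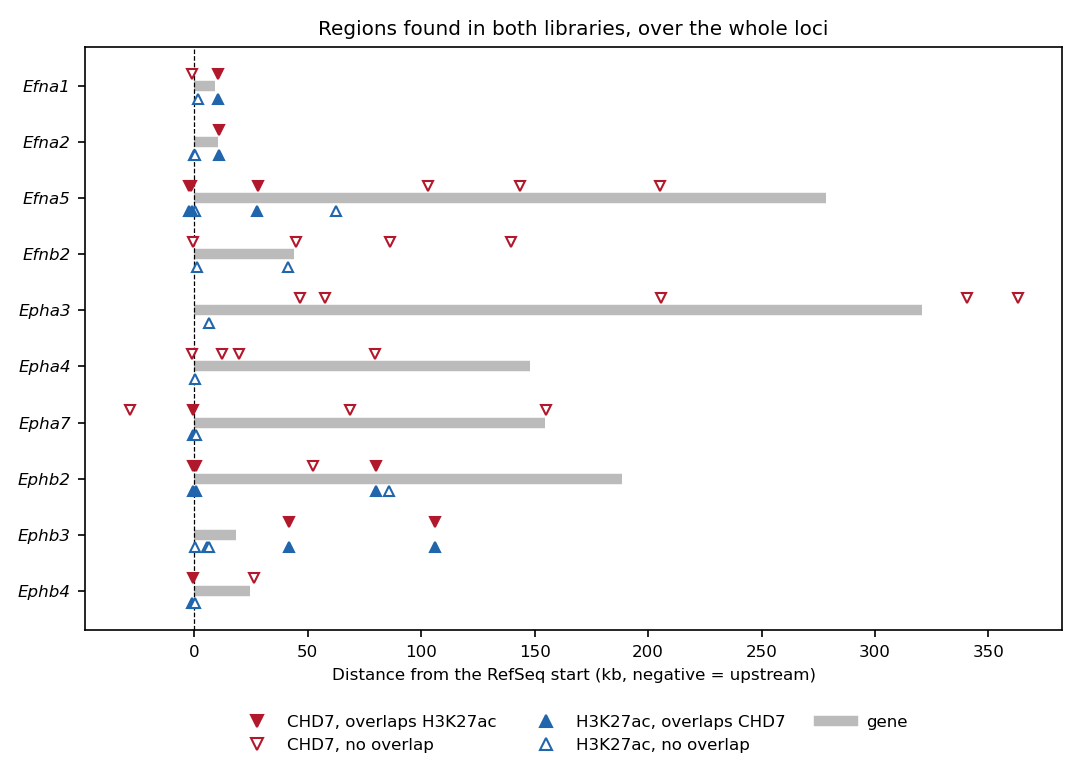
Position of each region found in both libraries, in kb from the RefSeq start along the gene's own strand (x axis), for the 10 members (grey bars are the genes), with CHD7 above and H3K27ac below each bar and filled symbols for regions that overlap the other antibody's regions. Filled symbols lie near starts, at the far ends of Efna1 and Efna2, inside Efna5 and Ephb2 and past Ephb3. Open CHD7 symbols lie over the bodies or flanks of every member but Efna2 and Ephb3.

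**Figure D4:**
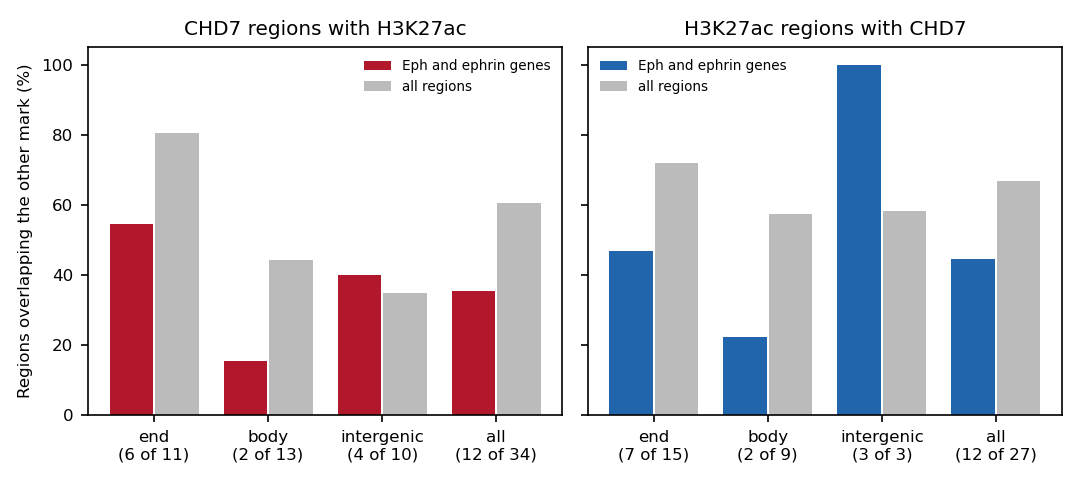
Share of CHD7 regions that overlap H3K27ac (left) and of H3K27ac regions that overlap CHD7 (right), in percent, for regions of the 10 members (coloured bars, counts under the axis) and for all regions of the series (grey bars), by position at gene ends, in gene bodies, between genes and in all. The member bars are lower than the grey bars except between genes, and rest on 3 to 15 regions in each position.

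The share of the members' peaks that lay at gene ends was lower for CHD7 than for H3K27ac in each library. It was 19.6% and 35.4% in CHD7 libraries 1 and 2 and 37.5% and 46.9% in H3K27ac libraries 1 and 2. The means of 27.5% ± 11.2 and 42.2% ± 6.63 (SD, n = 2 each) differed by −14.7 percentage points, CHD7 minus H3K27ac, and the groups did not overlap, but p was 0.333 (exact permutation test, two-sided), which is as low as a design of 2 against 2 can go. The difference was −6.77 points without CHD7 library 1 and −22.5 without CHD7 library 2. Counting every peak in the series, 42.5% and 46.7% of CHD7 peaks lay at ends, as did 53.9% and 55.5% of H3K27ac peaks.

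Of the peaks assigned to the members, 34 of 56 in CHD7 library 1 (60.7%) and 34 of 48 in library 2 (70.8%) overlapped a peak of the other library, where 65.1% and 76.6% of all CHD7 peaks did. For H3K27ac, 28 of 40 peaks (70.0%) and 27 of 32 (84.4%) recurred, where 75.8% and 81.3% of all peaks did. Of the 34 CHD7 regions, 23 had the higher fold in library 1, and of the 27 H3K27ac regions 12 did. These counts have no share over all regions beside them, so a general offset between libraries cannot be told apart. At the starts, library 2 alone called CHD7 at Efna2, Epha3 and Ephb3, the genes whose starts had no CHD7 region in both libraries other than Efna5, where neither library called it.

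Of the other 12 Eph and ephrin genes of the mouse, 5 had CHD7 at an end (41.7%, against 44.2% of all genes) and 5 had H3K27ac (41.7%, against 47.6%). Ephb1, a receptor gene, had the strongest CHD7 of the whole family at an end, with folds of 5.43 and 4.66 and overlapping H3K27ac (4.69 and 3.72). Ephb6, a receptor without kinase activity, had CHD7 folds of 3.97 and 4.26 and H3K27ac folds of 5.24 and 5.47. Efna4 (CHD7 folds 2.93 and 3.48) and Efnb3 (3.07 and 2.97) also had both marks overlapping. Epha2 had CHD7 without H3K27ac (3.59 and 3.01). Efnb1, a class B ephrin gene on the X chromosome, had H3K27ac without CHD7 (4.06 and 3.50). The remaining 6, Efna3, Epha1, Epha5, Epha6, Epha8 and Epha10, had neither.

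Genes that act with or downstream of Eph receptors and ephrins form the next group, and no test compared them with the members. Of 50 such genes, 40 had CHD7 at an end (80.0%), 43 had H3K27ac (86.0%) and 37 had the 2 overlapping, where the shares of all protein-coding genes were 44.2%, 47.6% and 37.9%. Their median CHD7 fold was 3.60, against 3.73 over all genes with CHD7 at an end and 2.88 over the 7 members. Pdzrn3, a ubiquitin ligase, led with CHD7 folds of 7.36 and 7.30. It was followed by the tyrosine kinase gene Abl2 (5.0 and 4.07), Cdc42, a small GTPase of the cytoskeleton (3.75 and 5.13), the phosphatase gene Acp1 (3.85 and 4.78) and the adaptor gene Shc1 (4.29 and 4.28). Anks1b, Arhgef15, Grb7, Ngef, which encodes an exchange factor that binds EphA receptors, and Ptprb, an endothelial phosphatase gene, had neither mark at an end. Many of these transducers are known to be expressed in most cell types. No expression values were used here, and a link between expression and these shares was not tested.

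The labelled cell type was checked against marker genes, beside the 44.2% and 47.6% of all genes with CHD7 and H3K27ac at an end. Of 12 neural crest markers, 2 had H3K27ac at an end, Twist1 and Msx2, and 2 had CHD7, Snai2 and Ets1, while Sox10, Foxd3, Tfap2a and Pax3 had neither there. Of 12 endothelial markers, which bear on Efnb2 and Ephb4, 0 had H3K27ac at an end and 4 had CHD7, Kdr, Erg, Cldn5 and Nrp1, while Cdh5, Pecam1, Tek and Tie1 had neither. Of 8 cardiomyocyte markers, 0 had either mark at an end. H3K27ac lay at an end of 2 of 8 markers each for blood (Spi1 and Klf1), epithelium (Grhl2 and Krt8), mesoderm and muscle (Tcf15 and Tbx6) and neurons (Elavl4 and Tubb3). CHD7 lay at an end of 2 of 8 blood, 2 of 8 epithelial, 3 of 8 mesoderm and muscle and 3 of 8 neuronal markers. With gene bodies and the nearest 100 kb included, H3K27ac was found at 5 of 12 crest, 5 of 12 endothelial, 0 of 8 cardiomyocyte, 6 of 8 blood, 4 of 8 epithelial, 2 of 8 mesoderm and muscle and 5 of 8 neuronal markers. CHD7 was found in that reach at 10 of 12 crest, 7 of 12 endothelial, 1 of 8 cardiomyocyte, 5 of 8 blood, 3 of 8 epithelial, 4 of 8 mesoderm and muscle and 5 of 8 neuronal markers. No share of all genes was computed for that reach, so those counts have no background beside them. Crest markers did not carry H3K27ac in a larger share than blood or neuronal markers, at ends or in that reach. The part of such cells in the values of the members was not tested.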

How the data were processed

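ChIP-seq peak lists of 6 libraries were used. Per the submitters' processing notes, the tools were bcl2fastq 2.18.0.12, Bowtie2 2.3.3.1, Picard and MACS2 2.1.2 with build mm10, while no source used here gives their settings. The authors deposited 1 list per library. It gives each peak's fold (a ratio, set by the authors' caller over its background), p-value and q-value as −log10 and a score that the deposited lists derive from the q-value. No counts are held, so depth and counting error are unknown, and fold was not compared between antibodies. The column of summit positions gave the distances.

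Rows of the same interval were joined with the highest fold kept, and chromosomes 1 to 19, X and Y were used. Overlap meant at least 1 bp. Gene extents came from RefSeq (GRCm38.p6, 21883 protein-coding genes, of which 111 with coordinates below 3000000, or 500000 on Y, were left out), and strands and starts from its promoter table, which served 17491 genes. Where a gene had several starts in that promoter table, the outermost was used. At Epha4, Epha7, Ephb2 and Ephb3 this start lay inside the annotated extent, farthest at Ephb2. Mean folds weight the libraries equally. Members and lists were chosen with earlier results of these data known, so counts are descriptions without set tests. All members are named. Other family genes were named if they had a region at an end (the 6 without are named beyond this rule), and transducers by the 5 highest CHD7 folds and 5 without marks in alphabetical order. Alternatives covered q-value limits, libraries, overlap and distances. The assignment was tested on simulated data. Analyses used Python 3.11.15, pandas 2.3.3 and SciPy 1.17.1.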

Additional observations from a re-analysis of the deposited data

How the results depend on the processing

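The results were recomputed under 65 other settings and 9 more that were chosen after seeing the data (overlap within 1 kb, RefSeq starts only, no regions at another gene's end). A count changed by over 1.5 times, or a share left its 95% binomial (Wilson) interval, in 11 of the former and 2 of the latter, and smaller changes were not counted. The intervals took regions as independent units, though these sit in 10 genes. They were wide, 21.5% to 52.1% for CHD7 regions and 27.6% to 62.7% for H3K27ac regions, so sizeable shifts could stay inside them. The sign of the difference in the share at gene ends, CHD7 minus H3K27ac, stayed negative in all its settings. All but 1 of the 13 came from stricter q-value limits or from the treatment of overlap. With a −log10 q of at least 5, CHD7 lay at an end of 4 members and overlapped H3K27ac at 3, with 21.4% of CHD7 regions (3 of 14) overlapping H3K27ac and 18.75% of H3K27ac regions (3 of 16) overlapping CHD7. With at least 10, the counts were 0 for CHD7 (against 10.6% of all genes, so members were then below the share of all genes and not above it), 4 for H3K27ac and 0 for both, the shares 0% of 2 CHD7 and 0% of 8 H3K27ac regions, and CHD7 lay at an end of 1 of the other family genes and 6 transducers. Counting RefSeq starts only, 3 members had both marks overlapping. Counting regions up to 1 kb apart as overlapping, 63.0% of the members' H3K27ac regions met CHD7. Overlap shares over all regions of the series were computed at the main setting only. The overlap shares in this section thus cannot be set against the series shares given above. Leaving out 1 library relaxed the rule, since a peak in the library left was then enough, so these counts tend to rise by construction. Without single libraries, CHD7 lay at an end of 7 to 9 members, 6 or 7 other family genes and 40 to 42 transducers, and overlapped H3K27ac at 5 or 6 members. H3K27ac lay at an end of 9 members without either library. Shares then ranged from 28.6% to 41.2% for CHD7 regions and from 35.0% to 59.3% for H3K27ac regions. The difference in the share at gene ends was −6.77 percentage points without CHD7 library 1, −22.5 without CHD7 library 2, −19.3 without H3K27ac library 1 and −9.97 without H3K27ac library 2, so each CHD7 library moves it by over 1.5 times, and it was −35.4 and −52.5 at −log10 q limits of 5 and 10. The stricter limits leave fewer regions by construction. No paired analysis was possible because the library numbers are not said to pair the samples and the results, but for 1 share of peaks, come from no test. Depth is unknown, so a gene without a peak was not shown to lack the mark.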
